A study of Rattus norvegicus with 6 samples.

Results

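On the Affymetrix Rat Expression Array 230 2.0, 10735 of the 31042 probe sets that are not array controls carried no gene symbol in the deposited annotation, which is 34.6% of the array. They were taken as every row whose symbol field was empty, with no use of the measured signals. The arrays compared the rostral ventrolateral medulla of 3 spontaneously hypertensive rats (SHR) with that of 3 Wistar-Kyoto rats (WKY, written Wistar-Kyoko in the labels), the strain usually set against SHR because its blood pressure is normal. All rats were untreated and weighed 250 to 350 g, and 1 array stood for 1 animal. The labels gave no age for either strain.

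A probe set is a group of short probes on the array that together read 1 stretch of transcript. Arrays of this design were built from clusters of expressed sequence tags, which are single reads from the ends of cloned complementary DNAs, and mostly from the polyadenylated end. A tag cluster can therefore lie in the last untranslated stretch of a gene whose annotated end is too short, in an intron kept in the nucleus, in a non-coding RNA, or in a copy of a repeat. Many genes of the brain end at several polyadenylation sites and have long final untranslated regions, which makes such stretches common in neural tissue. The rostral ventrolateral medulla holds the C1 catecholaminergic neurons and other cells that drive the sympathetic nerves.

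Expressed sequence tags were the design source of 10672 of these probe sets, or 99.4%, against 74.2% of the 19276 probe sets with 1 symbol. Full-length messenger RNAs were the source of 27 and other messenger RNAs of 26. A similarity to a known protein stood in the design title of 718, and the annotation noted probes matching the negative strand of a known sequence for 344. A position on the rat assembly Rnor5.0 was given for 9478, or 88.3%, against 98.9% of probe sets with 1 symbol. Of the positioned ones, 369 aligned to several places. Members were not all separate transcripts, since 771 shared a UniGene cluster with another member.

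The tissue label was checked against marker genes that carry symbols. All 5 measured genes of C1 catecholaminergic neurons, all 4 neuronal genes, all 3 astrocyte genes and all 3 oligodendrocyte genes were called Present on all 6 arrays. The forebrain gene Emx1 and the cerebellar granule cell gene Gabra6 were called Present on none. The 7 measured genes of hindbrain position all had a lower mean in SHR than in WKY. Of the 4 kept for testing, none was called after adjustment by limma and 4 had an unadjusted p under 0.05. The mean log2 signal of all 7 per array lay between 7.19 and 8.04 in SHR and between 8.20 and 8.48 in WKY. Both blood genes, uncalled with an unadjusted p under 0.05, had array means of 9.38 to 9.64 in SHR and 9.80 to 10.33 in WKY. The part of these shifts in the results below was not tested.

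The probe sets without a symbol were dimmer and less often detected than those with 1 symbol. Their median log2 signal was 6.61, 6.60 and 6.59 on the 3 SHR arrays and 6.55, 6.52 and 6.56 on the 3 WKY arrays. The probe sets with 1 symbol had medians of 7.95, 7.94 and 7.99 in SHR and 7.94 on each WKY array. On every array the unnamed rows were thus lower, by 1.38 ± 0.032 log2 units (SD, n = 6). The exact 2-sided sign-flip permutation test over the 6 arrays gave p = 0.0312, the smallest that 6 arrays allow. Every array reads the same rows, so this p bears only on whether the gap recurs from array to array. A signal also depends on the probes themselves, so these medians describe rows of the array and not amounts of RNA. Signal over the unnamed rows was wide: the middle 80% lay between 3.55 and 9.79, and the highest reached 13.9.

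Between 55.8% and 58.8% of the probe sets without a symbol were called Present on an array, against 69.3% to 71.2% of those with 1 symbol. The difference was 13.3 ± 0.733 percentage points lower (SD, n = 6), with p = 0.0312 in the same exact permutation test, which has the same limit. SHR arrays had 57.7 ± 1.54% Present and WKY arrays 56.5 ± 0.555% (SD, n = 3 each), which overlapped (exact permutation p = 0.300). Median signals did not overlap between the strains, at 6.60 in SHR and 6.55 in WKY, but with 3 arrays against 3 the exact permutation p of 0.1 is the smallest possible. All 6 arrays called 4927 members Present (45.9%, against 62.7% with 1 symbol), and all 6 called 3014 Absent (28.1%, against 19.8%).

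The 5 unnamed probe sets with the highest mean signal were Present on all 6 arrays. The brightest was 1372542_at on chromosome 1 (52330692 to 52331872, plus strand), with log2 signals of 13.83, 13.77 and 13.81 in SHR and 13.93, 13.89 and 13.91 in WKY. No gene span lay within 10000 bases of it. Next came 1371507_at, which averaged 13.55 in SHR and 13.65 in WKY and lay inside Cnbd2 on the opposite strand. Probe set 1381996_at began 635 bases after the annotated 3' end of Gpm6b, which encodes a membrane proteolipid of neurons and glia. It averaged 13.55 in SHR and 13.62 in WKY. Probe set 1388670_at lay 2448 bases after Kif1a, the motor that carries synaptic vesicle precursors along axons, and averaged 13.34 in SHR and 13.42 in WKY. The fifth, 1383066_at, lay inside Copg2 on the opposite strand and averaged 13.24 in SHR and 13.23 in WKY. None of the 5 passed the strain test (limma, adjusted p between 0.462 and 0.975), and 1 had an unadjusted p under 0.05 (1372542_at, 0.0334).

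Position against the named genes sorted the unnamed probe sets into unlike classes. Gene spans were the outer limits of the transcripts that the deposited annotation assigned to rows with 1 symbol, 11334 spans in all. The largest class near genes lay on the same strand within 10000 bases after a gene's 3' end, with 2649 members at a median of 1756 bases beyond it. It was the most often detected, with 77.7% called Present on at least 3 of 6 arrays and a median log2 signal of 7.99. Inside a gene on its own strand lay 1438 members, of which 57.4% were detected, with a median of 6.20. Inside a gene on the opposite strand lay 610, of which 28.4% were detected, with a median of 4.94. A further 1091 lay within 10000 bases in another arrangement (57.2% detected) and 3690 lay farther from any span (55.6% detected). The 1257 without a position were detected in 43.7%. Whether a probe set inside a span matched an exon, an intron or an untranslated region was not examined, since no transcript model was used here.

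**Figure D1:**
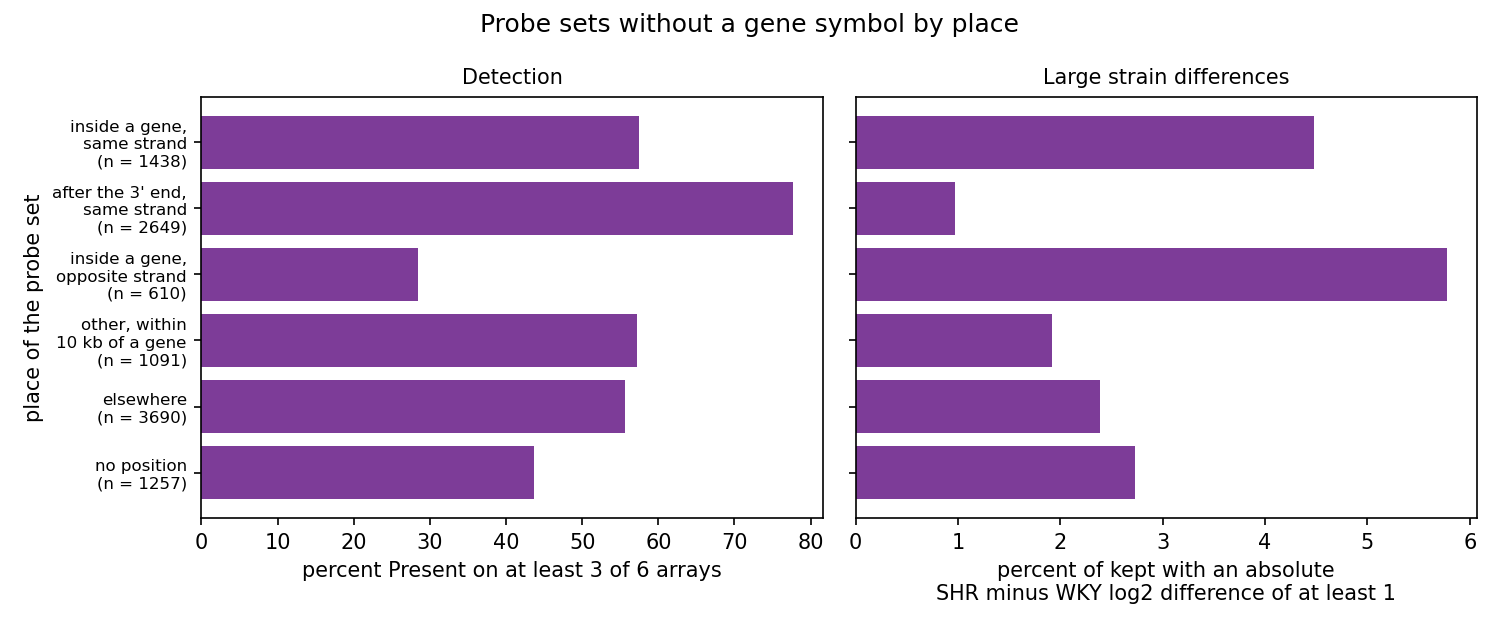
Bars give, for each class of place, the percent of probe sets without a symbol called Present on at least 3 of 6 arrays (left) and the percent of those kept whose absolute SHR minus WKY log2 difference was at least 1 (right). Probe sets after a 3' end were detected most often (77.7%) and had the lowest share of large differences (0.972%, 20 of 2057 kept). Those inside a gene on the opposite strand were detected least often (28.4%) and had the highest share (5.78%, 10 of 173 kept). The kept rows of these 2 classes also differed in median log2 signal (8.61 and 6.91) and in median standard error of a difference (0.145 and 0.247). Called were 0.826% and 1.16% of them, where 0.924% of all kept probe sets were. The part of signal level in these shares was not tested.

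The number of sequences in a member's design cluster went the same way as detection. Members built from 1 or 2 sequences were detected in 50.2% of 3348 cases, and those built from 10 or more in 85.4% of 925, with median log2 signals of 5.92 and 9.38. Members noted to match the negative strand of a known sequence were detected in 41.6% of 344 cases.

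Strain differences were examined in the 6281 unnamed probe sets called Present on at least 3 of 6 arrays (58.5% of them, against 71.3% of those with 1 symbol). A member that is Absent in one strain can enter through the other strain alone, so these kept members are not the whole class. In the test with limma over all 20790 kept probe sets, adjusted by the Benjamini-Hochberg method, 73 members had an adjusted p under 0.05 and are referred to as called. They made up 1.16% of the kept members, where 0.924% of all kept probe sets were called and 0.836% (115) of those with 1 symbol. In SHR, 45 were higher, or 0.716% of kept members where 0.524% of all kept probe sets were higher, and 28 were lower, or 0.446% where 0.399% of all were lower. In all 73 the values of the 3 SHR rats did not overlap those of the 3 WKY rats, which held for 973 kept members (15.5%) and for 15.0% of all kept probe sets. The count of 73 was 35, 39 or 32 without WKY replicate 1, 2 or 3, and 28 without a variance trend in the fit. In whole tissue, a change in RNA per cell and a change in the number of cells of a type cannot be told apart. Strain differences in the probed sequence, which could also alter a signal, were not examined.

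Large differences, taken as an absolute log2 difference of at least 1 (2-fold), made up a greater share of the unnamed rows than of the named ones. They numbered 143 of 6281 (2.28%), against 114 of 13750 rows with 1 symbol (0.829%) and 1.28% of all kept probe sets. Of the 143, 87 were higher and 56 lower in SHR, 46 were called (32.2%, against 36.1% of all large differences), and in 104 the strains did not overlap (72.7%, against 75.9%). Among probe sets Present on all 6 arrays the shares were 0.792% of unnamed rows and 0.447% of rows with 1 symbol. The spread was also larger in the unnamed rows: the median standard error of a difference was 0.183 log2 units against 0.138. Pairs of rats of one strain differed by at least 1 log2 unit in 3.30% to 5.33% of kept members, and in 1.55% to 3.16% of rows with 1 symbol. Pairs of rats of different strains did so in 4.57% to 6.96% of kept members and in 2.04% to 4.23% of rows with 1 symbol.

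Most large differences lay at low signal. Under a mean log2 signal of 6, 63 of 667 kept members (9.45%) had one, against 6.22% of 563 rows with 1 symbol, with median standard errors of 0.404 and 0.401. From 6 to 8 the shares were 2.28% of 2627 members and 1.35% of rows with 1 symbol. From 8 to 10 they were 0.871% and 0.385%, and at 10 and over 0.217% (2 of 921) and 0.163% (6 of 3678). Each bin thus had the greater share among the unnamed rows, though at 10 and over on very few rows. A greater share of unnamed than named rows lay in the dimmest bin (10.6% against 4.09%). The share called was 0.300%, 1.22%, 1.36% and 1.19% of members from the dimmest bin up, against 0.178%, 0.765%, 0.909% and 0.897% of rows with 1 symbol. Probe sets are not replicates, and no test of these shares was made. The members on either side of the threshold differed little in fold. Just inside lay 1397058_at and 1383944_at, both 2.01-fold higher in SHR by strain means. Just outside lay 1381319_at and 1381753_at, both 1.99-fold higher. None of them was called (limma, adjusted p between 0.134 and 0.786). For 1397058_at the strains overlapped, at 5.47, 4.89 and 5.09 in SHR and 5.47, 1.82 and 5.14 in WKY. Its fold rested on the WKY array at 1.82, called Absent. The fold of 1381319_at rested mostly on WKY replicate 1, at 4.75 and called Absent (WKY SD 1.19).

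**Figure D2:**
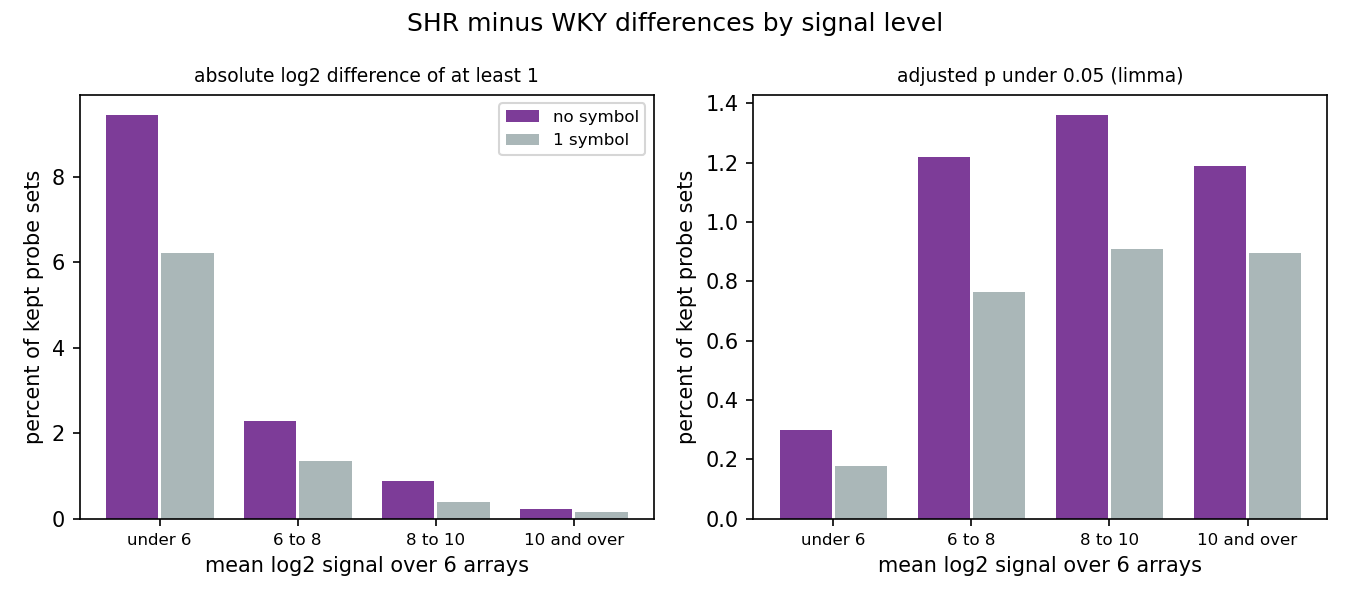
Bars give the percent of kept probe sets without a symbol and with 1 symbol, in bins of mean log2 signal, that had an absolute SHR minus WKY log2 difference of at least 1 (left) or an adjusted p under 0.05 in limma (right). Large differences were most frequent in the dimmest bin, at 9.45% and 6.22%, whereas calls were fewest there, at 0.300% and 0.178%.

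Among the 73 called members, 5 were Present in every SHR rat and Absent in every WKY rat, and 3 were Absent in every SHR rat and Present in every WKY rat. They include the largest differences. All of them entered the test only through the strain in which they were Present, so their differences and p-values are a description. The share of all kept probe sets with such a pattern was not counted. The words at least before such folds mean that no rat of the dim strain was called Present, and they set no limit on sampling error. No dim-strain signal was taken as lower than the dimmest Present signal on the same array, which altered only the fold of 1382998_at (5.29 without this floor). With 1 array left out, the log2 difference ran from -3.92 to -4.67 for 1384717_at and from 3.21 to 3.84 for 1394620_at. Probe set 1384717_at (chromosome 7, 91867638 to 91868117, minus strand) had log2 signals of 4.76, 3.72 and 5.22 in SHR, all called Absent, and 9.06, 8.74 and 8.93 in WKY. It was at least 20.3-fold lower in SHR (adjusted p = 0.000255, limma). The position given lies inside Asap1, which encodes an activating protein for Arf GTPases, and the annotation lists 2 alignments for it. The 5 kept named rows of Asap1 differed by -0.06 to 0.63 log2 units, none past the test. In the other direction, 1394620_at (chromosome 1, 204941216 to 204941991, minus strand) had 9.17, 9.18 and 9.29 in SHR and 5.26, 5.48 and 6.52 in WKY, where it was Absent. It was at least 11.0-fold higher in SHR (adjusted p = 0.00033). Its design title gave a moderate similarity to metallothionein-I, a metal-binding protein, while its position is 1176 bases after the 3' end of Eif3c, a subunit of a translation initiation factor.

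Inside the span of Ncor1, a co-repressor of nuclear receptors, 1392392_at (chromosome 10, 48425151 to 48425504, minus strand) had 5.18, 5.27 and 4.90 in SHR and 8.23, 7.91 and 7.71 in WKY. It was at least 7.11-fold lower in SHR (adjusted p = 0.000392). The 3 kept named rows of Ncor1 differed by 0.03, 0.50 and -0.87 log2 units, of which only the last was called (adjusted p = 0.048), and its call was lost in 8 of 14 alternative settings. Inside Arhgef12, 1378062_at had 5.88, 4.71 and 5.37 in SHR and 8.17, 8.19 and 7.89 in WKY, at least 6.81-fold lower in SHR (adjusted p = 0.00159). The kept named row of that gene differed by 0.00. SHR signals of both were Absent in all 3 rats and lay well below the WKY range.

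The other 4 members Absent in every WKY rat had smaller differences. Probe set 1382998_at, inside Rnmt, the methyltransferase of the messenger RNA cap, had 7.07, 6.50 and 6.22 in SHR and 3.63, 3.86 and 5.09 in WKY, at least 5.13-fold higher (adjusted p = 0.0468). That call was lost in 9 of 13 alternative settings, and both named rows of Rnmt differed by 0.05 or less in size. The unpositioned 1384191_at was at least 4.30-fold higher in SHR (adjusted p = 0.0288, lost in 7 of 13 settings). Probe set 1397449_at on chromosome 13 was at least 4.07-fold higher (adjusted p = 0.00727), and 1391179_at on chromosome 18, 40430 bases from Tcf4, at least 2.84-fold higher (adjusted p = 0.00977).

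Among called members detected in both strains, the largest rise was 1394689_at (chromosome 18, 56140171 to 56140647, plus strand). It had 9.37, 9.27 and 9.52 in SHR and 6.50, 6.80 and 7.08 in WKY, a difference of 2.59 ± 0.17 log2 units (SE; 6.04-fold, adjusted p = 8.99e-05). It lies inside Csnk1a1, the gene of casein kinase 1 alpha, whose 3 kept named rows differed by 0.08, 0.39 and -0.31, none past the test. Probe set 1392026_at lies inside Mbnl2, a regulator of alternative splicing, and had 7.93, 8.10 and 8.10 in SHR and 6.15, 5.66 and 5.83 in WKY (4.47-fold higher, adjusted p = 0.000802). The 4 named rows of Mbnl2 differed by 0.03 to 0.12. Inside Lamc1, a laminin chain of basement membranes, 1396877_at had 8.12, 7.63 and 7.64 in SHR and 5.87, 6.0 and 6.10 in WKY (3.49-fold higher, adjusted p = 0.00363). In each of these 3 members the lowest SHR rat stood above the highest WKY rat by more than 1 log2 unit.

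Other rises lay mostly after or away from named genes, with 1 inside a gene. Probe set 1391089_at, 1368 bases after Rgs7bp, which binds regulators of G protein signalling in neurons, had 10.08, 9.32 and 8.58 in SHR and 7.56, 7.23 and 7.70 in WKY (3.56-fold higher, adjusted p = 0.0218). The SHR rats were unequal there, and the call was lost in 5 of 14 settings. The named row of Rgs7bp differed by 0.46 (adjusted p = 0.295). Far from any span, 1381646_at (26478 bases from Mapre2), 1395521_at (50139 bases from Car12) and 1377974_at were 5.04-fold, 4.08-fold and 2.99-fold higher in SHR (adjusted p = 0.00227, 0.000657 and 0.000392). The unpositioned 1378960_at had 8.64, 8.71 and 8.67 in SHR and 6.63, 6.91 and 6.75 in WKY (3.75-fold higher, adjusted p = 0.000255). The last 2 of the 10 largest rises were 1377329_at inside Bzw2, 3.20-fold higher (adjusted p = 0.0326, lost in 7 of 13 settings), and 1392118_at, 6395 bases from Dsn1, 3.11-fold higher (adjusted p = 0.00727). A named row of Mtcl2 starts 868 bases from the start of 1392118_at and differed by 0.14 (adjusted p = 0.737).

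The largest falls among members detected in both strains were 1377996_at and 1378347_at. Probe set 1377996_at (chromosome 12, 40744969 to 40745189, minus strand), 4301 bases from Hpd but in no span, had 5.99, 6.87 and 7.11 in SHR and 9.15, 9.32 and 9.81 in WKY. The difference was -2.77 ± 0.28 log2 units (SE; 6.83-fold lower, adjusted p = 0.000965). Inside Nktr, which encodes a large cyclophilin-related protein, 1378347_at (chromosome 8, 129550853 to 129551105, plus strand) had 6.57, 6.47 and 7.05 in SHR and 9.23, 9.61 and 9.28 in WKY. It was 6.39-fold lower in SHR (adjusted p = 0.000111), and the named rows of Nktr differed by -0.08 and 0.12. Both strains were well apart in each of these members.

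On the strand opposite to a gene lay 2 called members, both lower in SHR. Probe set 1397795_at, within the span of Avil, had 7.34, 7.50 and 7.44 in SHR and 9.03, 9.10 and 8.96 in WKY (3.04-fold lower, adjusted p = 0.000255). Probe set 1380900_at, within the span of Cep295, a centriole protein, had 4.84, 6.39 and 5.61 in SHR and 7.41, 7.53 and 7.80 in WKY (3.92-fold lower, adjusted p = 0.0342). That call was lost in 6 of 13 settings. Away from genes, 1392360_at, 1375699_at and 1392037_at were 3.82-fold, 3.54-fold and 2.44-fold lower (adjusted p = 0.011, 0.00366 and 0.045), with the first lost in 4 of 14 settings and the last in 7 of 14. At 6666 bases after the 3' end of Mrpl19, a protein of the mitochondrial ribosome, 1371750_at was 2.45-fold lower (adjusted p = 0.0043). The named row of Mrpl19 differed by 0.25 (adjusted p = 0.318). A named row of Gcfc2 starts closer, 459 bases from the start of 1371750_at, and differed by 0.23 (adjusted p = 0.862).

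**Figure D3:**
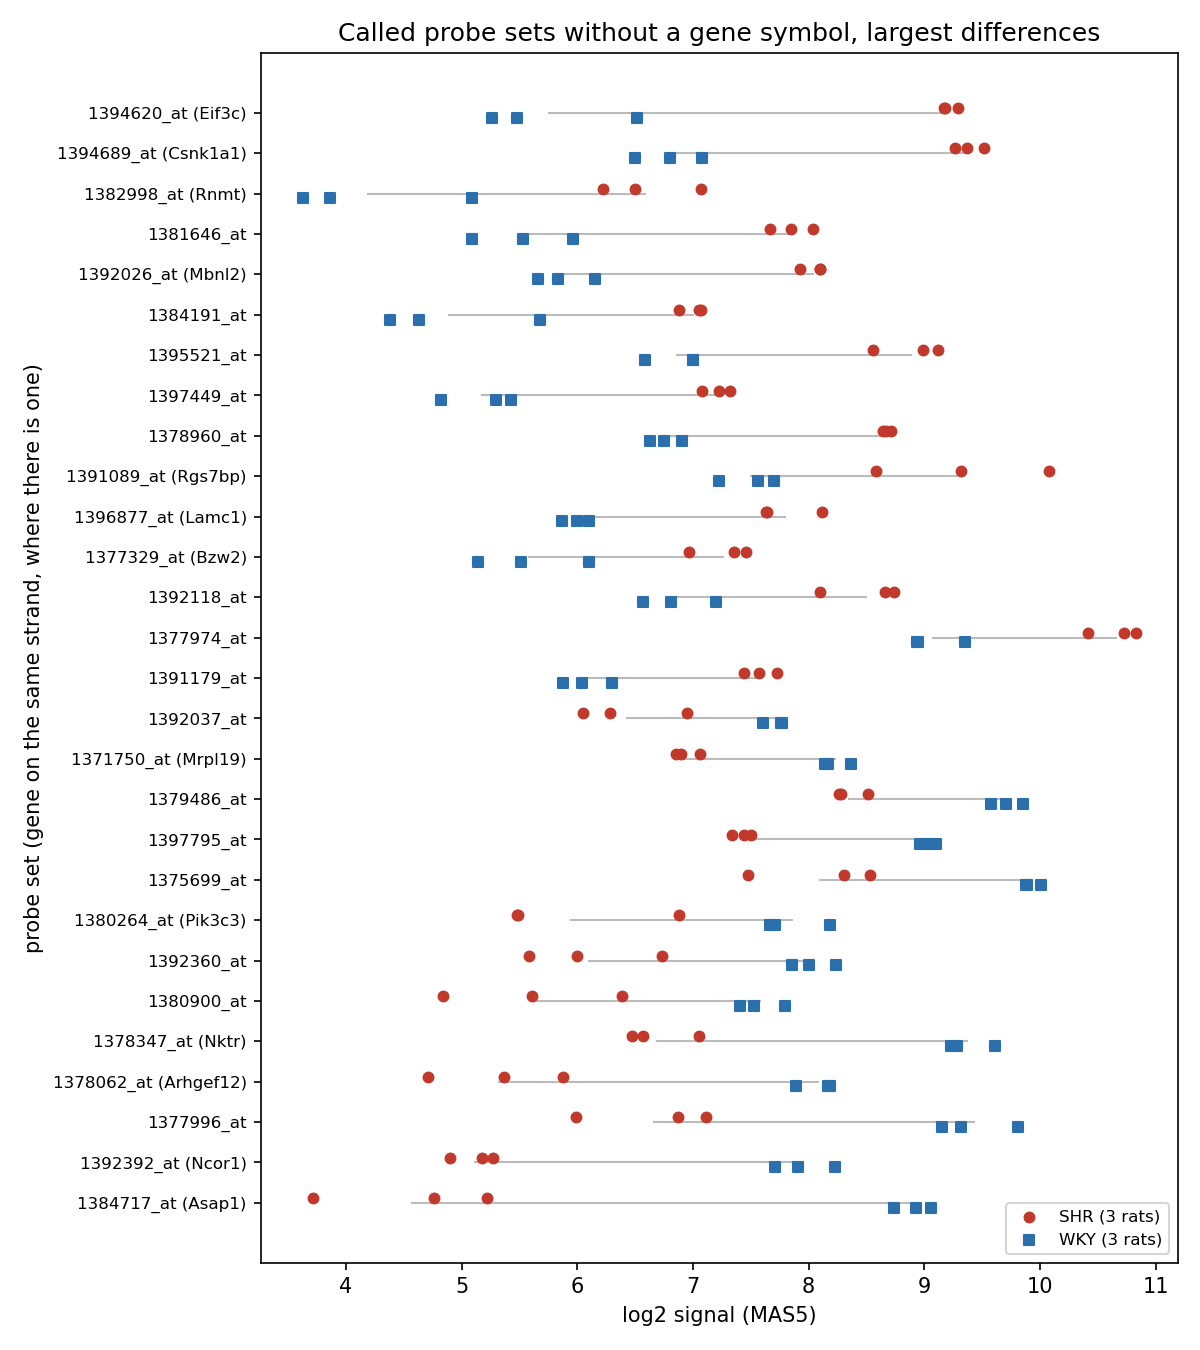
Each row is 1 called probe set without a symbol, with the log2 signals of the 3 SHR rats (red circles) and the 3 WKY rats (blue squares) and a grey line joining the strain means. A gene in brackets has the probe set inside it or within 10 kb after its 3' end on the same strand. No row has overlapping strains, and the differences run from 3.46 (top) to -4.34 (bottom) log2 units.

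Most named rows beside a called member were not themselves called. Of the 73 called members, 65 had a position and 55 had a probe set with 1 symbol starting within 100000 bases. That row was kept for 43, and 5 of the 43 were called (11.6%, where 0.836% of all kept rows with 1 symbol were), 2 in the same direction as the member and 3 in the opposite one. Over these 43, the median absolute log2 difference was 1.25 in the members and 0.17 in the named rows, 34 of which differed by less than 0.5. The members had been picked for a difference and the named rows had not, so the gap between these medians is a description only.

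Members lying in or just after a gene were then set beside the gene's own brightest kept row, whether or not either was called. Inside genes on the same strand there were 769 such pairs in 639 genes, and the differences of the pair correlated at r = 0.082. After the 3' end there were 1688 pairs in 1326 genes, with r = 0.097. Both are correlations across pairs that share the same 6 arrays and in part the same gene, and both are weak. Inside genes the member was called in 11 pairs and the gene's row in 6, and after the 3' end in 15 and 21 pairs. Both rows of a pair were called in 1 pair inside a gene and in 4 pairs after a 3' end. Whether these are few or many was not tested.

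**Figure D4:**
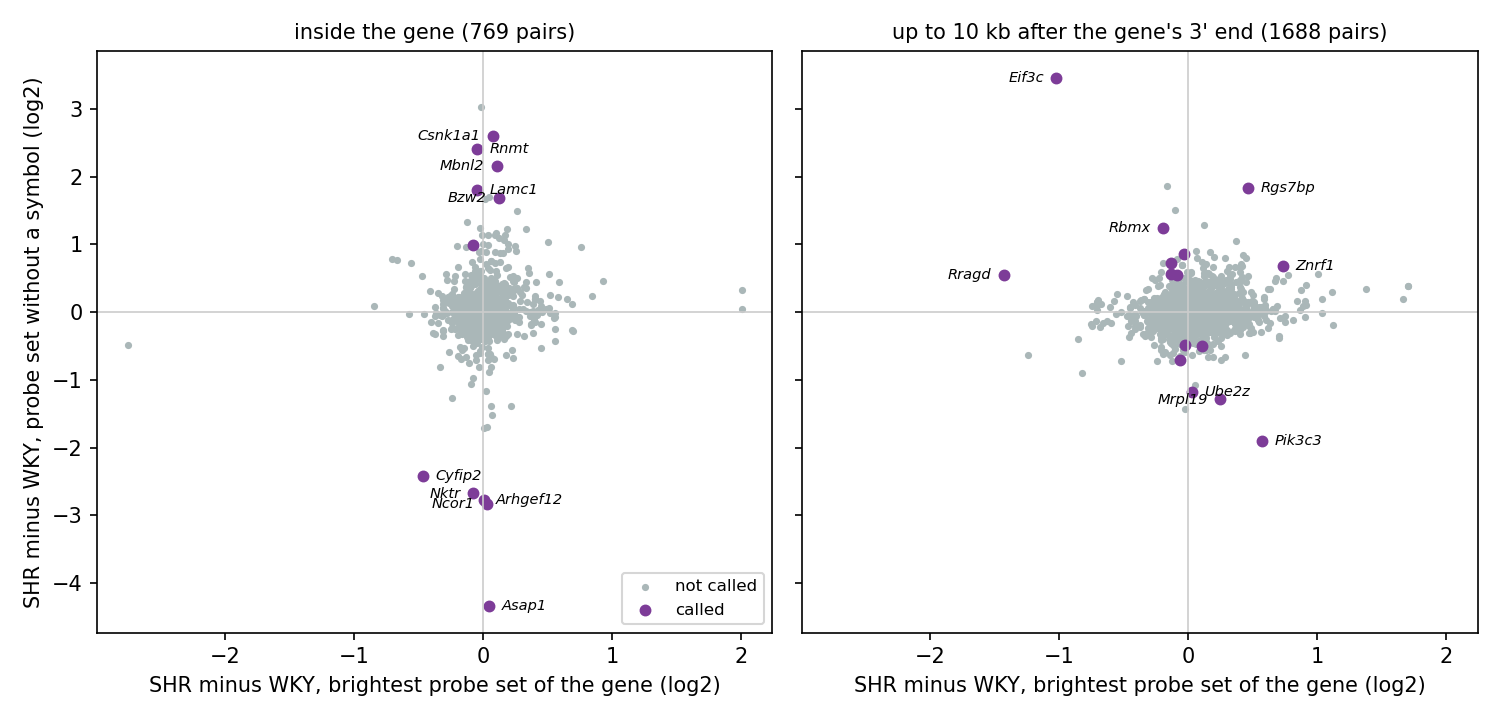
Each point is 1 pair of a kept probe set without a symbol and the brightest kept probe set of the gene it lies in (left, 769 pairs) or after (right, 1688 pairs), with SHR minus WKY log2 differences of the gene's row on the x axis and of the unnamed row on the y axis. Purple points are called unnamed probe sets. Most of these lie near 0 on the x axis, and Eif3c, Rragd and Pik3c3 lie in the quadrants of opposite sign.

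At 3 genes the unnamed probe set after the 3' end and the named row were both called in opposite directions. For Eif3c, the member 1394620_at described above was at least 11.0-fold higher in SHR, while the named row 1388378_at had 10.96, 10.94 and 11.03 in SHR and 12.01, 11.98 and 11.99 in WKY. This row was 2.03-fold lower in SHR (adjusted p = 7.17e-05), and neither call was lost in any alternative setting that measured it. A second Eif3c row, 1397674_at, differed by -0.41 (adjusted p = 0.622). For Rragd, a GTPase that passes amino acid signals to the mTOR kinase, the member 1382835_at lies 2841 bases after the 3' end and had 9.92, 10.07 and 10.04 in SHR and 9.38, 9.45 and 9.54 in WKY. It was 1.46-fold higher (adjusted p = 0.0191). The named row had 5.98, 6.48 and 6.41 in SHR and 7.61, 7.69 and 7.84 in WKY, 2.69-fold lower (adjusted p = 0.0114).

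For Pik3c3, the lipid kinase that starts autophagosomes, 1380264_at lies 4792 bases after the 3' end. It had 5.49, 5.48 and 6.88 in SHR and 7.67, 7.71 and 8.19 in WKY, 3.75-fold lower (adjusted p = 0.0408). The named row had 9.95, 9.93 and 9.64 in SHR and 9.28, 9.27 and 9.27 in WKY, 1.48-fold higher (adjusted p = 0.0368). The Pik3c3 calls were lost in 7 (member) and 6 (named row) of 14 settings, and those at Rragd in 6 of 14 (member) and 3 of 13 (named row).

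Among pairs with a gene's brightest kept row, the remaining ones with both rows called moved together. At Ncor1, described above, the member and a dimmer named row were also both called and lower in SHR. For Znrf1, a ubiquitin ligase, the member 1372826_at lies 890 bases after the 3' end and had 9.25, 9.19 and 9.42 in SHR and 8.59, 8.62 and 8.61 in WKY. It was 1.60-fold higher (adjusted p = 0.0173, lost in 5 of 14 settings). The named row 1383204_at was 1.66-fold higher (adjusted p = 0.00492, lost in 1 of 14 settings), while a dimmer Znrf1 row, 1397157_at, differed by -0.02. Inside Cyfip2, part of a complex that controls actin branching, 1379150_at had 6.65, 6.29 and 4.63 in SHR, Present on none of the 3 arrays, and 8.5, 7.97 and 8.34 in WKY. It was at least 5.34-fold lower in SHR, in the same sense as above (adjusted p = 0.0342, lost in 6 of 13 settings). This member, too, entered the test only through its WKY arrays. The brightest Cyfip2 row was 1.39-fold lower (adjusted p = 0.0115, lost in 3 of 14 settings), and a second one differed by 0.21. Cyfip2, Rragd and Znrf1 were singled out after their values were seen.

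Seen from the genes, 34 kept members lay in or after 23 genes with a called named row, and 6 of the 34 were called (17.6%, where 0.924% of all kept probe sets were). An unadjusted p under 0.05 was reached by 11 (32.4%, where 9.52% of all were). These were chosen because the gene differed, and the counts are a description only. The named row 1377011_at of Fry differed by 2.00 log2 units, while the 2 members inside that gene, 1381471_at and 1397021_at, differed by 0.33 and 0.04. A second named Fry row, 1380073_at, differed by 0.05 (adjusted p = 0.981). At Nt5dc1 the named row 1396344_at differed by -2.75, a second named row, 1392144_at, by -0.08 (adjusted p = 0.945), and the member 1398122_at by -0.48. At Trps1, a zinc finger transcription factor, the named rows 1383112_at and 1385227_at differed by 1.70 and 0.71 (adjusted p = 0.000451 and 0.223) and both members after the 3' end by 0.38. None of these 5 members passed the test (adjusted p between 0.457 and 0.98). Fry, Nt5dc1 and Trps1 were named after their values were seen.

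Of the 65 called members with a position, 9 had a start within 1000000 bases of another called member, in 4 groups. No such count was made over all kept probe sets, so whether 9 is few or many was not tested. On chromosome 8, 1379486_at (55206819 to 55207503) and 1379641_at (55206970 to 55209764) start 151 bases apart on the plus strand, 12723 bases or more from Rdx, the gene of radixin, which ties actin to the cell membrane. They went in opposite directions. Probe set 1379486_at had 8.26, 8.51 and 8.28 in SHR and 9.85, 9.58 and 9.71 in WKY, 2.57-fold lower (adjusted p = 0.000392). Probe set 1379641_at had 9.11, 9.59 and 9.25 in SHR and 8.36, 8.19 and 8.18 in WKY, 2.10-fold higher (adjusted p = 0.00608, lost in 1 of 14 settings). The kept Rdx row nearest to both differed by 0.40 (adjusted p = 0.568).

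**Figure D5:**
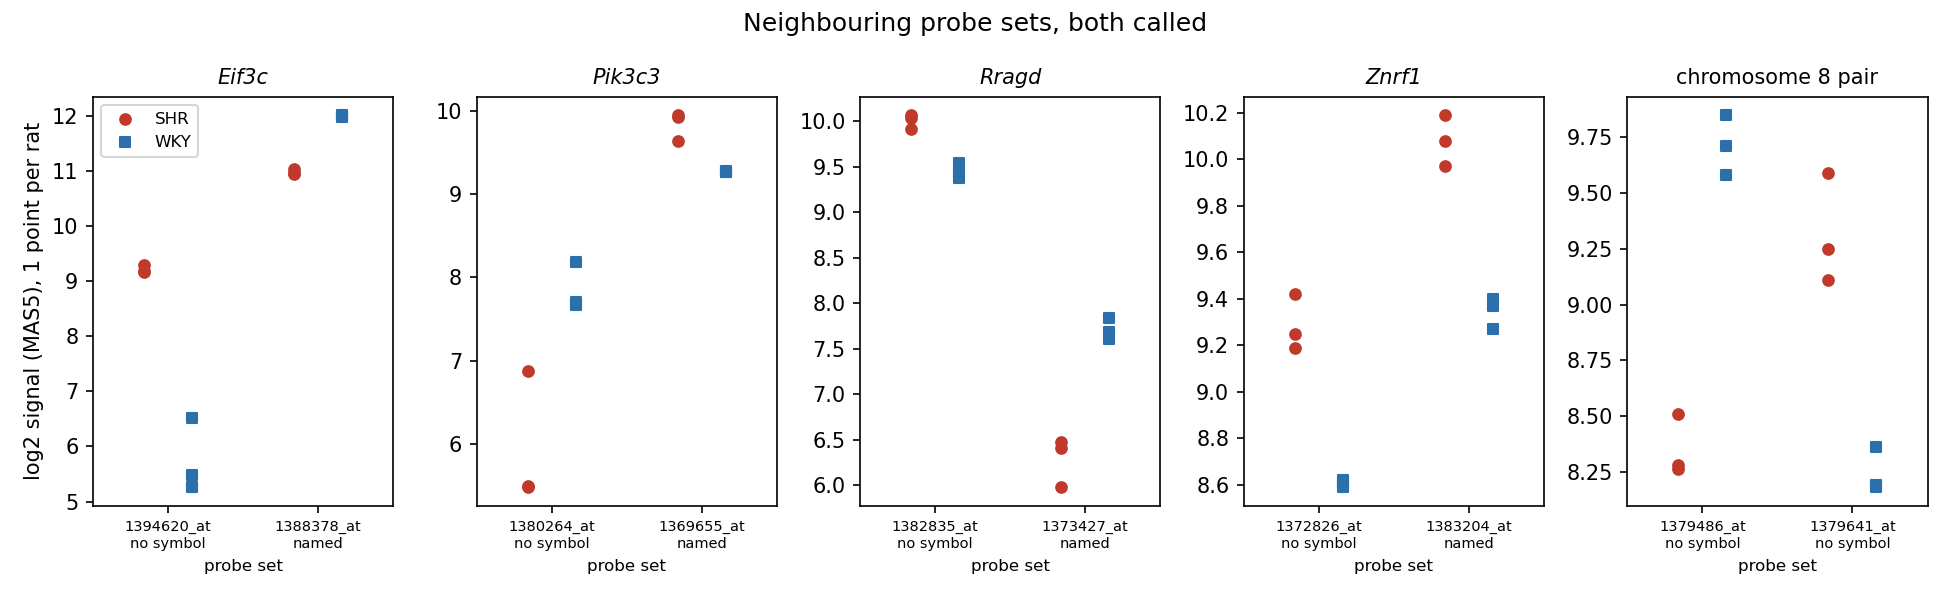
Log2 signals of the 3 SHR rats (red circles) and 3 WKY rats (blue squares) at 5 places where neighbouring probe sets were both called. At Eif3c, Rragd and Pik3c3 the unnamed and the named probe set went in opposite directions, at Znrf1 both were higher in SHR, and the chromosome 8 pair, starting 151 bases apart, also split. The y axes differ between panels and do not start at 0.

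On chromosome 13, 3 called members within 208243 bases were all higher in SHR. Probe sets 1391406_at and 1386022_at lie 725 and 110 bases after the 3' end of Degs1, the desaturase that makes ceramide, and were 1.65-fold and 1.47-fold higher (adjusted p = 0.00402 and 0.039). Their signals were 11.02, 10.73 and 10.80 in SHR and 10.15, 10.17 and 10.07 in WKY for the first, and 9.68, 9.91 and 9.87 in SHR and 9.14, 9.29 and 9.36 in WKY for the second. The named Degs1 row, starting 426 bases from the second, differed by -0.13 (adjusted p = 0.573). The call of 1386022_at was lost in 7 of 14 settings. The third, 1397449_at, was the member Absent in WKY described above.

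The other groups lay on chromosomes 18 and 8. On chromosome 18, 1381646_at on the plus strand was higher in SHR, and 1382304_at, 154505 bases away on the minus strand, was 2.09-fold lower (adjusted p = 0.0161, lost in 5 of 13 settings). On chromosome 8, 1374485_at was 1.62-fold lower (adjusted p = 0.039, lost in 6 of 14 settings) at 128685 bases from 1378062_at, the member inside Arhgef12 that was Absent in SHR. Probe set 1374485_at itself lies 3097 bases from the span of Arhgef12, on the plus strand, whereas 1378062_at lies on the minus strand.

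By chromosome, the highest shares of kept members called were 4.06% on chromosome 18 (8 of 197), 3.35% on chromosome 13 (8 of 239), 2.87% on chromosome 11 (5 of 174) and 2.83% on chromosome 8 (10 of 353). On the same chromosomes, 1.40%, 2.46%, 2.75% and 1.51% of rows with 1 symbol were called. On chromosome 1, which held the most members, 3 of 618 were called (0.485%, against 0.549% of rows with 1 symbol). Counts this small were not tested, and neighbouring rows are not independent.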

How the data were processed

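Total RNA of 6 tissue samples was hybridised, 1 array per rat, per the labels. The authors deposited log2 signals with a Present, Marginal or Absent call per probe set, and the same signals as linear intensities. The submitters' processing notes name MAS5, with no version. Deposited log2 values were those of the linear intensities with a floor of 1 (largest difference 8.2e-06). The deposited annotation, with positions on Rnor5.0 and a percent identity per alignment that was not used, gave symbols and coordinates. Per the file headers, no scan date or other batch was given.

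Controls (57) and no other rows were left out. Symbols of neighbouring genes were updated by Entrez ID through a RefSeq table of assembly GRCr8, which held 18882 of 19276 rows. Log2 signals were used as deposited. Probe sets Present on at least 3 of 6 arrays entered a 2-sided limma test (lmFit, eBayes with a variance trend; limma 3.58.1, R 4.3.3), with strain as the only factor. Differences are SHR minus WKY, and standard errors are moderated. Array-level values were compared by exact permutation tests. The number of arrays limits the precision. Simulated data of 20790 probe sets, 200 of them changed, gave recovery of 36.1%, 80.9% and 95.5% for changes of 0.5, 1 and 2 log2 units, with 7.34% of calls false. Noise was drawn independently per probe set.

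Probe sets were named by a fixed rule: the 10 largest rises and falls among called members without overlap and Present on at least 2 arrays per strain, up to 5 per direction Absent throughout one strain, the 5 brightest, those beside the threshold of 1, and called members within 1000000 bases of another. Other names are marked as chosen later. The members, rule and lists were chosen with earlier results of these data known, and the classes of place after the annotation was seen. Sequences of probes and of the probed transcripts were not used here, so strain differences in the probed sequence were not examined. The alternatives tried were pseudocounts of 16 and 64, median centring, quantile normalization, other filters, no variance trend, a replicate block and leaving out each array.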

Additional observations from a re-analysis of the deposited data

How the results depend on the processing

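The count of called probe sets without a symbol was 73 and stayed between 50 and 80 under quantile normalization, median centring, both pseudocounts, both other filters and the replicate block. Without a variance trend it was 28. Leaving out 1 array gave 32 to 80 calls: 35, 39 and 32 without WKY replicates 1, 2 and 3, against 51 to 80 without an SHR array. Of the 73, 22 (14 higher, 8 lower in SHR) were called in every setting that measured them, 1394620_at, 1394689_at, 1378347_at and 1384717_at among them. No called member changed sign in any of the 14 settings, but most settings could not change one. The strains did not overlap in any of the 73, so leaving out an array or adding a pseudocount keeps the sign. The other filters, the fit without a variance trend and the replicate block leave the difference itself unchanged. Rats with the same number did not deviate together (correlations of 0.0774, -0.0099 and 0.066 over kept probe sets), so the numbers were not taken as pairs. With the replicate number as a block, 75 members were called. The share of kept members with a large difference, 2.28%, depended on the filter and on the floor: it was 0.792% among those Present on all 6 arrays, 11.5% with no filter, 1.34% and 0.589% with pseudocounts of 16 and 64, and 7.47% at 1.5-fold. The share for rows with 1 symbol, 0.829%, was then 0.447%, 6.95%, 0.495%, 0.255% and 3.71%, each below that of the members. Leaving out 1 array gave 2.37% to 2.88% for members and 0.975% to 1.24% for rows with 1 symbol. By signal, from the dimmest bin, the shares were 9.45%, 2.28%, 0.871% and 0.217% for members and 6.22%, 1.35%, 0.385% and 0.163% for rows with 1 symbol. The difference in median signal lay between -1.37 and -1.38 and that in the Present share between -13.1 and -13.5 percentage points without 1 array, where the exact permutation p was 0.0625, the smallest that 5 arrays allow. Of the positioned members, 4087 lay inside a span or within 10000 bases after it on the same strand. Windows of 5000 and 20000 bases, added after seeing the data, gave 3719 and 4374. Under a mean log2 signal of 6 the median standard error of a member's difference was 0.404, which limits what can be called there.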

Other observations

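A further 40 called probe sets without a symbol fell outside the naming rule. In SHR, 27 of them were higher, by 0.47 to 1.70 log2 units, and 13 were lower, by -0.49 to -2.42. The examples here were chosen after their values were seen. After the 3' end of Rbmx, an RNA-binding protein of the nucleus, 1395523_at had 10.04, 9.97 and 9.84 in SHR and 8.72, 8.68 and 8.71 in WKY, 2.37-fold higher (adjusted p = 0.000255, limma), while the named Rbmx row differed by -0.20 (adjusted p = 0.743). After the 3' end of Ube2z, a ubiquitin-conjugating enzyme, 1384219_at had 8.42, 7.96 and 8.13 in SHR and 9.42, 9.17 and 9.46 in WKY, 2.27-fold lower (adjusted p = 0.00368), and the kept named row differed by 0.03.

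The unpositioned 1373053_at had 10.85, 10.59 and 10.93 in SHR and 9.78, 9.70 and 9.76 in WKY (2.06-fold higher, adjusted p = 0.000633). Far from any gene span, 1398230_at on chromosome 6 was 2.73-fold higher (adjusted p = 0.00479), and 1381218_at on chromosome 10, Present on no WKY array, was at least 3.25-fold higher (adjusted p = 0.00994). Both kept their calls in every setting that measured them, as did 1373053_at and 1395523_at. Probe set 1381218_at had entered the test only through its SHR arrays.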
